A study of Mus musculus with 4 samples.

Results

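The genes described here are 10 genes of peroxide defence and redox control, chosen by symbol: the glutathione peroxidases Gpx1, Gpx4 and Gpx7, the peroxiredoxins Prdx1, Prdx2, Prdx4 and Prdx6, the transcription factor gene Nfe2l2 (Nrf2), its inhibitor Keap1, and Txnip. They are 10 of 24016 gene symbols in the deposited tables, and each was read from the transcript with the most counts over all libraries. The RNA came from hematopoietic stem cells of C57BL/6 mice at 4 months of age, sorted out of bone marrow as lineage-negative, Sca-1-positive, c-Kit-positive, CD150-positive cells without CD34 or Flt3. There were 2 libraries from NHD13 mice (genotype NHD13+) and 2 from wild-type (WT) mice. The NHD13 transgene encodes the leukemia fusion of NUP98 with HOXD13, known in this line to be driven by Vav regulatory elements in blood cells, and the mice serve as a model of myelodysplastic syndrome. The labels do not say how many animals went into a library, so n counts libraries, and every SD and p-value describes the spread among these libraries, which may be technical.

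Glutathione peroxidases and peroxiredoxins remove hydrogen peroxide and lipid peroxides, and catalase also breaks down hydrogen peroxide. Glutathione peroxidases draw on glutathione, and peroxiredoxins mostly draw on thioredoxin, which the arrestin-domain protein Txnip binds and inhibits. Nrf2 switches on many genes of both systems, and Keap1 holds it in check by directing it to degradation. Blood stem cells are known for keeping reactive oxygen low, and loss of that control is known to push them out of quiescence.

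The libraries held 35025974 and 48423689 counts in NHD13 and 42664018 and 37070939 in WT, with 1 transcript per gene. Levels are given as CPM, each count scaled by its library total after TMM normalisation, and a gene is called where edgeR's quasi-likelihood test gave an adjusted p under 0.05 over all genes tested. That rule called 4.28 percent of 14853 genes, while DESeq2 called 17.5 percent (8.2 percent higher and 9.33 percent lower) and limma-voom 4.17 percent (1.8 percent higher and 2.37 percent lower). The stem cell genes Kit, Slamf1 (CD150), Procr and Mecom were present in all libraries, at 991 and 1122 CPM in NHD13 and 1130 and 1271 CPM in WT for Kit. Of 12 gate and stem cell genes, 1 was called, Hlf, which was lower in NHD13 (not called without WT library 1 or WT library 2). The sum over 11 late granulocyte markers was 2783 CPM in NHD13 library 1, 369 in NHD13 library 2, and 322 and 278 in WT. None of the 11 was called by edgeR on all 4 libraries (2 had an unadjusted p under 0.05, both higher, and DESeq2 called 1 and limma-voom 0), and none was at 0 in all libraries. The sum over 10 early granulocyte and monocyte markers was 1628 and 1027 CPM in NHD13 cells, against 394 and 363 in WT, and 4 of the 10, Mpo, Elane, Ctsg and Ms4a3, were called higher (DESeq2 called 7 and limma-voom 2). That count was 2 without NHD13 library 1, 7 without NHD13 library 2 and 0 without either WT library. Summed levels were also higher in both NHD13 libraries for mast cell and basophil markers (140 and 148 CPM in NHD13 cells, against 26.3 and 8.16 in WT), T and NK cell markers (203 and 298 CPM in NHD13 cells, against 78.5 and 83.6 in WT), macrophage markers (52.9 and 41.6 CPM in NHD13 cells, against 20.7 and 23.2 in WT) and B cell markers (90.7 and 97.9 CPM in NHD13 cells, against 74.3 and 82.5 in WT). Single genes carried much of these sums. Ms4a2 was at 111 and 4.45 CPM in NHD13 cells, and Cpa3 at 21.3 and 107. On all 4 libraries edgeR called 1 mast cell and basophil gene, Fcer1a, which was lower in NHD13. Nkg7 was at 153 and 82.2 CPM in NHD13 cells, and Cd3e at 0.728 and 36.3. Cd68 was at 35.5 and 31.8 CPM in NHD13 cells, and Cd79b at 74.0 and 75.7. In each of the T and NK cell, macrophage and B cell lists, edgeR on all 4 libraries called 1 gene, higher in NHD13. These genes were Nkg7 (log2 fold change 2.67, adjusted p 0.0293), Cd68 (1.67, adjusted p 0.0151) and Cd79a (1.65, adjusted p 0.0454). Cd79b was not called. Mcpt8, Prss34, Cd3d, Cd4, Klrb1c, C1qa, C1qb, Vcam1, Spic, Vpreb1 and Ebf1 had log2 fold changes below 0. Megakaryocyte markers summed to 467 and 631 CPM in NHD13 cells, against 1682 and 1897 in WT. Most of that WT sum was Mmrn1, at 74.0 and 158 CPM in NHD13 and 1227 and 1489 in WT. Pf4 went the other way, at 90.5 and 112 CPM in NHD13 and 57.2 and 30.8 in WT, and was not called by edgeR. On all 4 libraries edgeR called 2 markers of this list, Mmrn1 and Gp9, both lower in NHD13. DESeq2 called 2 higher and 2 lower, and limma-voom 0 higher and 2 lower. At an unadjusted p under 0.05 by edgeR, 2 markers of this list were higher and 2 were lower. The part of these cell types in the levels of the 10 genes was not tested. In bulk RNA, fewer cells of a type and less RNA per cell cannot be told apart.

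All 10 genes passed the filter on low counts, and 3 were called. Prdx4, the peroxiredoxin of the endoplasmic reticulum (ER), rose 2.07-fold in NHD13 cells. Gpx7, a glutathione peroxidase relative of the same compartment, fell to 3.26 CPM ± 0.045 (SD, n = 2) in NHD13 cells, against 14.9 ± 1.12 in WT. Nfe2l2 fell to 130 ± 6.32 CPM in NHD13 cells, against 213 ± 14.5 in WT. Over all genes tested the called share was 4.28 percent, with 2.07 percent higher and 2.22 percent lower. The median log2 fold change of the 10 genes was -0.10, beside 0.00 over all genes tested, and their median absolute log2 fold change was 0.32, beside 0.29. As a group they did not move one way: 3 had a log2 fold change above 0 and 7 below 0.

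**Figure D1:**
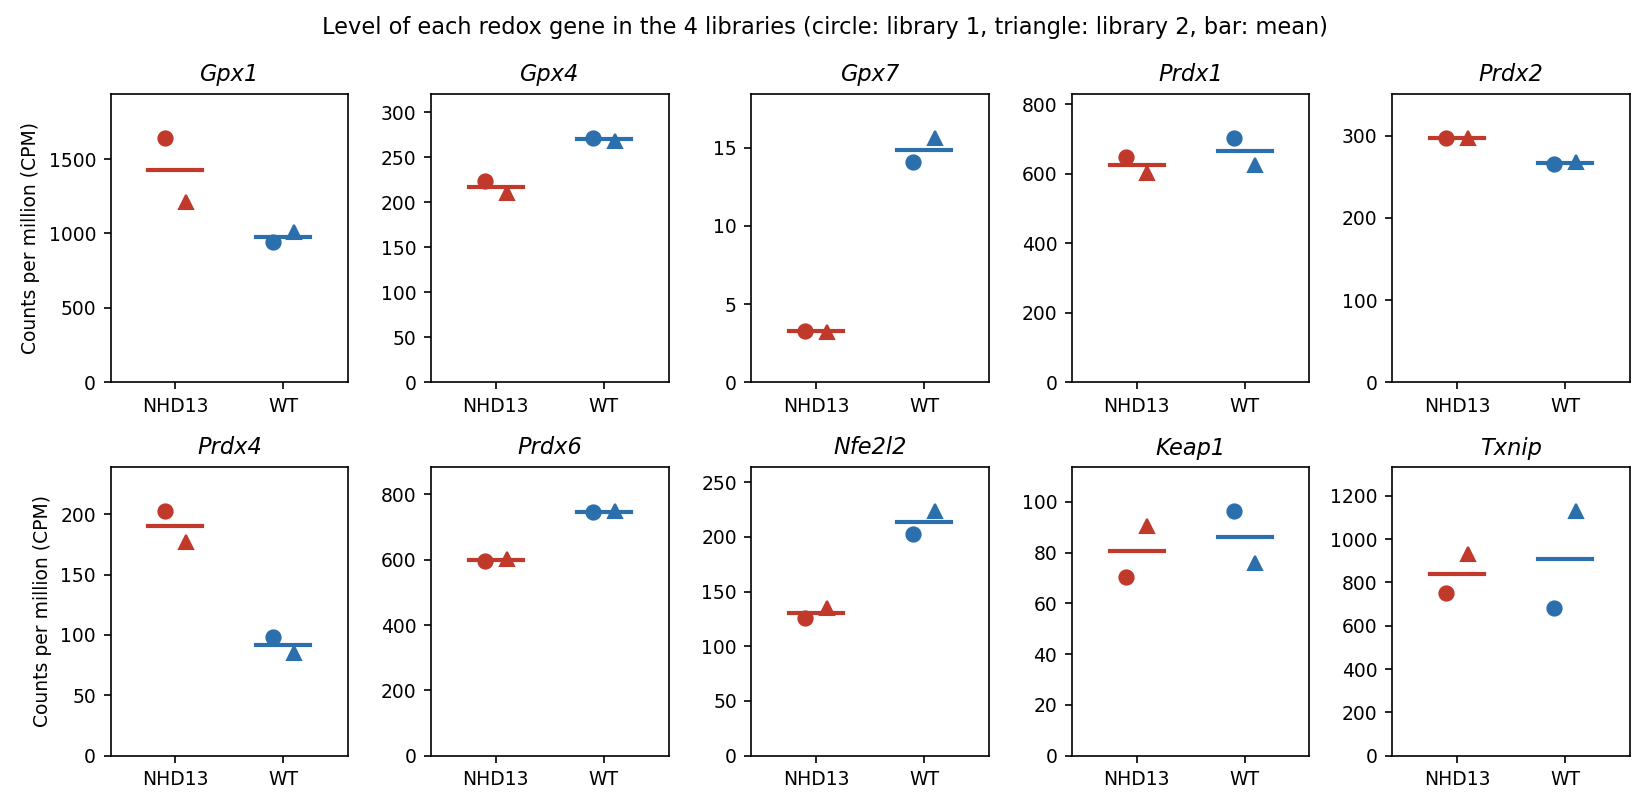
Level of each of the 10 genes in CPM (vertical axes start at 0 and differ between panels) in the NHD13 and WT libraries, with circles for library 1, triangles for library 2 and bars for the group mean. NHD13 and WT do not overlap for 7 genes; for Prdx1, Keap1 and Txnip they do.

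The groups did not overlap for 7 of the 10 genes, 3 with both NHD13 libraries above WT and 4 with both below. Over all genes tested, 60.4 percent had groups that did not overlap, with 30.1 percent above and 30.3 percent below, so this share is near the background. At an unadjusted p under 0.05 there were 6 of the 10 genes, against 26.8 percent of all genes tested.

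The glutathione peroxidases differ in the residue that does the chemistry. Gpx1 and Gpx4 are selenoproteins, whose active-site selenocysteine is written as the codon TGA, otherwise a stop. Gpx7 has an ordinary cysteine there. The coding stretch around that codon is shown because it holds this difference between Gpx7 and its relatives. It was read from the GENCODE M21 transcript (mouse GRCm38) matched to each RefSeq accession, with the active-site codon in capitals:
Gpx1: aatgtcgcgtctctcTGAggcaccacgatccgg
Gpx4: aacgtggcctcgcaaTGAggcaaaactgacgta
Gpx7: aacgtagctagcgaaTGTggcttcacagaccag

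Gpx1, the main cytosolic glutathione peroxidase, was at 1645 and 1214 CPM in NHD13 cells, against 943 and 1012 CPM in WT. NHD13 library 1 stood highest, and both NHD13 libraries lay above both WT libraries. On the log2 scale the fold change was 0.55 ± 0.16 (SE), with an adjusted p of 0.119. It was called by DESeq2 (adjusted p 0.0145), and by edgeR without NHD13 library 2 (0.76 ± 0.10, adjusted p 0.0420). Without NHD13 library 1, the library with the high late granulocyte markers, it was 0.32 ± 0.10 (adjusted p 0.247). Whether granulocyte transcripts contributed to the Gpx1 level was not tested.

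Gpx4, which reduces lipid peroxides in membranes and guards against ferroptosis, was at 223 and 211 CPM in NHD13 cells, against 272 and 268 CPM in WT. Its libraries were close within each group and the groups did not overlap. Its log2 fold change was -0.31 ± 0.086 with an adjusted p of 0.105, and DESeq2 called it (adjusted p 0.0234). Gpx1 and Gpx4 counts can be set against each other within a library, which removes library scaling. The Gpx1 to Gpx4 ratio was 7.36 and 5.76 in NHD13 cells, against 3.47 and 3.78 in WT, so these selenoprotein transcripts lay further apart in both NHD13 libraries.

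Gpx7 had 113 and 158 counts in NHD13 cells, against 612 and 572 in WT. As CPM this was 3.29 and 3.22 in NHD13 cells, against 14.1 and 15.7 in WT, and the NHD13 libraries were nearly equal. The log2 fold change was -2.19 ± 0.21, a 4.56-fold lower level in NHD13, with an adjusted p of 0.0192, rank 111 of 14853 genes by p. The call was kept when NHD13 library 1 (adjusted p 0.0488) or NHD13 library 2 (0.0301) was left out and was lost without WT library 1 (0.174) or WT library 2 (0.171), where the log2 fold change was -2.27 and -2.11. Each of those fits without a WT library called 0 of all genes, with 2332 genes at an unadjusted p under 0.05 without WT library 1 and 2605 without WT library 2.

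Among the peroxiredoxins of the 10 genes, Prdx4 was the gene called by edgeR, and it rose in NHD13 cells. It was at 203 and 177 CPM in NHD13 cells, against 98.4 and 84.8 CPM in WT. Each NHD13 library was well above each WT library, while libraries of a group differed by 0.19 on the log2 scale in NHD13 and by 0.22 in WT. The log2 fold change was 1.05 ± 0.13 with an adjusted p of 0.0295. The call was kept without NHD13 library 2 (adjusted p 0.0362), and was lost without NHD13 library 1 (0.96 ± 0.13, adjusted p 0.0747), WT library 1 (adjusted p 0.179) or WT library 2 (0.180). Early granulocyte markers were also higher in both NHD13 libraries, by the sums given above, and their part in the Prdx4 level was not tested.

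Prdx6, a 1-cysteine peroxiredoxin that also acts on phospholipid peroxides, was at 595 and 601 CPM in NHD13 cells, against 745 and 749 CPM in WT. The libraries of each group were almost equal and the groups did not overlap. This gave a log2 fold change of -0.32 ± 0.076, with an adjusted p of 0.0837, and DESeq2 called it (adjusted p 0.00388). Prdx6 and Gpx4, which both act on lipid peroxides, thus had similar values, -0.32 and -0.31, and neither was called by edgeR.

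Prdx2, the abundant peroxiredoxin of red cells, was at 297 and 298 CPM in NHD13 cells, against 265 and 268 CPM in WT. The difference between groups was small and exceeded the spread within each, with a log2 fold change of 0.16 ± 0.080 and an adjusted p of 0.273. Hemoglobin transcripts were low in all libraries, with Hbb-b1 at 4.86 and 10.1 CPM in NHD13 and 12.6 and 2.93 CPM in WT. The erythroid marker list of 14 genes summed to 1946 and 2773 CPM in NHD13 and 3852 and 4387 in WT, nearly all of it Car2, a carbonic anhydrase also present in stem cells. No marker of this list was at 0 in all libraries.

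Prdx1, a cytosolic peroxiredoxin and a known Nrf2 target, was at 648 and 602 CPM in NHD13 cells, against 705 and 625 CPM in WT. These ranges overlapped, and the log2 fold change was -0.089 ± 0.10 (adjusted p 0.615). Within a library, Prdx4 counts were 0.313 and 0.294 of those of Prdx1 in NHD13 cells, against 0.140 and 0.136 in WT. These ratios, which do not depend on library scaling, were higher in both NHD13 libraries than in both WT libraries. Gpx4, Prdx1, Prdx2 and Prdx6 have pseudogenes named for them in RefSeq, and how reads with several alignments were counted is not stated in the sources used here, and their levels may share reads with such copies.

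**Figure D2:**
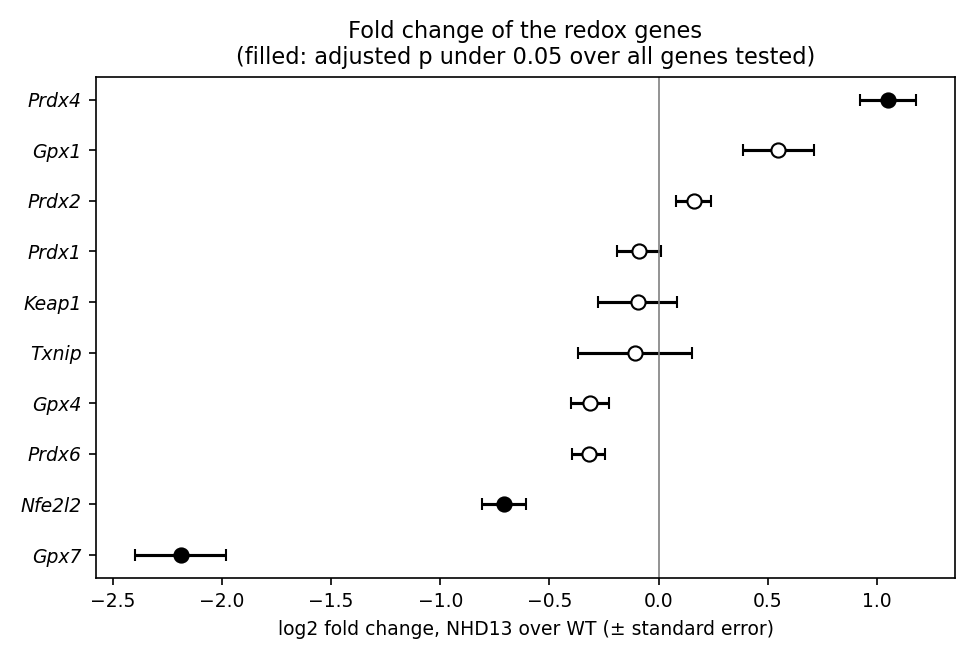
Log2 fold change of NHD13 over WT for each of the 10 genes with its standard error, filled where the adjusted p over all genes tested was under 0.05. Prdx4 at 1.05, Nfe2l2 at -0.71 and Gpx7 at -2.19 are the filled points.

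Levels can be compared between genes only per transcript length. On the scale of CPM per kilobase, Gpx1 was the highest of the 10 in each group, at 1535 and 1132 in NHD13 and 879 and 944 in WT. Txnip came next, at 265 and 330 in NHD13 and 242 and 400 in WT, but its range overlapped that of the gene below it in each group, Prdx1 in NHD13 and Prdx6 in WT. Gpx7 was the lowest, at 2.55 and 2.50 in NHD13 and 10.9 and 12.1 in WT. In NHD13 the order between them was Prdx1, Prdx6, Gpx4, Prdx2, Prdx4, Nfe2l2 and Keap1, with overlapping ranges for Prdx2 and Prdx4. In WT it was Prdx6, Prdx1, Gpx4, Prdx2, Prdx4, Nfe2l2 and Keap1, with overlapping ranges for Prdx1 and Gpx4 and for Prdx4 and Nfe2l2.

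Summed over the 7 peroxidases, CPM per kilobase came to 2704 and 2246 in NHD13 cells, against 2069 and 2085 in WT. Gpx1 made up 56.7 and 50.4 percent of that sum in NHD13 cells, against 42.5 and 45.3 percent in WT. The share of Prdx4 was 7.57 and 7.96 percent in NHD13 cells, against 4.80 and 4.11 percent in WT. Prdx6 had 9.21 and 11.2 percent in NHD13 cells, against 15.1 and 15.0 percent in WT. Both NHD13 libraries thus had larger shares of Gpx1 and Prdx4 and smaller shares of Prdx6, Prdx1, Gpx4 and Gpx7 than both WT libraries, while the share of Prdx2 overlapped between groups. Shares sum to a fixed total, so a larger share of Gpx1 lowers the others.

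**Figure D3:**
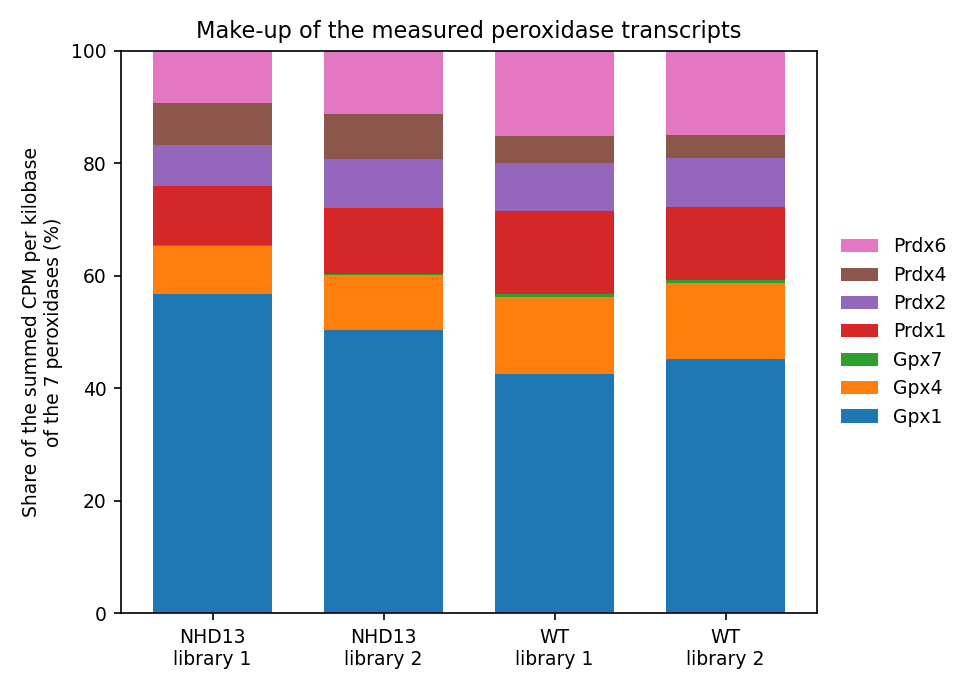
Share of each peroxidase in the summed CPM per kilobase of the 7 peroxidase genes, in percent, for each library. Gpx1 takes 56.7 and 50.4 percent in NHD13 and 42.5 and 45.3 percent in WT; the Gpx7 band is under 1 percent in every library.

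Nfe2l2 encodes Nrf2, a bZIP factor that binds antioxidant response elements together with small Maf proteins. It was at 126 and 135 CPM in NHD13 cells, against 203 and 224 CPM in WT. Both NHD13 libraries lay well below both WT libraries. The log2 fold change was -0.71 ± 0.10, 1.64-fold lower in NHD13, with an adjusted p of 0.0380. DESeq2 called it (adjusted p 2.35e-07), as did limma-voom (0.0403), but edgeR did not with any single library left out: the adjusted p was 0.118 without NHD13 library 1, 0.0556 without NHD13 library 2, 0.204 without WT library 1 and 0.202 without WT library 2, with log2 fold changes of -0.78 to -0.64.

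Keap1, the adaptor that presents Nrf2 for ubiquitination, was at 70.6 and 90.5 CPM in NHD13 cells, against 96.4 and 75.8 CPM in WT. The groups overlapped and the libraries within a group differed more than the group means did. Its log2 fold change of -0.096 ± 0.18 (adjusted p 0.774) was 0.081 without NHD13 library 1 or WT library 1, so no direction is given. The Nfe2l2 to Keap1 count ratio was 1.79 and 1.49 in NHD13 cells, against 2.11 and 2.95 in WT.

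Txnip, which binds reduced thioredoxin and limits glucose uptake, was at 749 and 932 CPM in NHD13 cells, against 683 and 1130 CPM in WT. The WT libraries lay on either side of both NHD13 libraries, 0.73 apart on the log2 scale. The log2 fold change was -0.11 ± 0.26 (adjusted p 0.828). It ranged from -0.43 without WT library 1 to 0.30 without WT library 2, and was 0.049 without NHD13 library 1, so a difference was not detectable beyond the spread between these libraries.

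**Figure D4:**
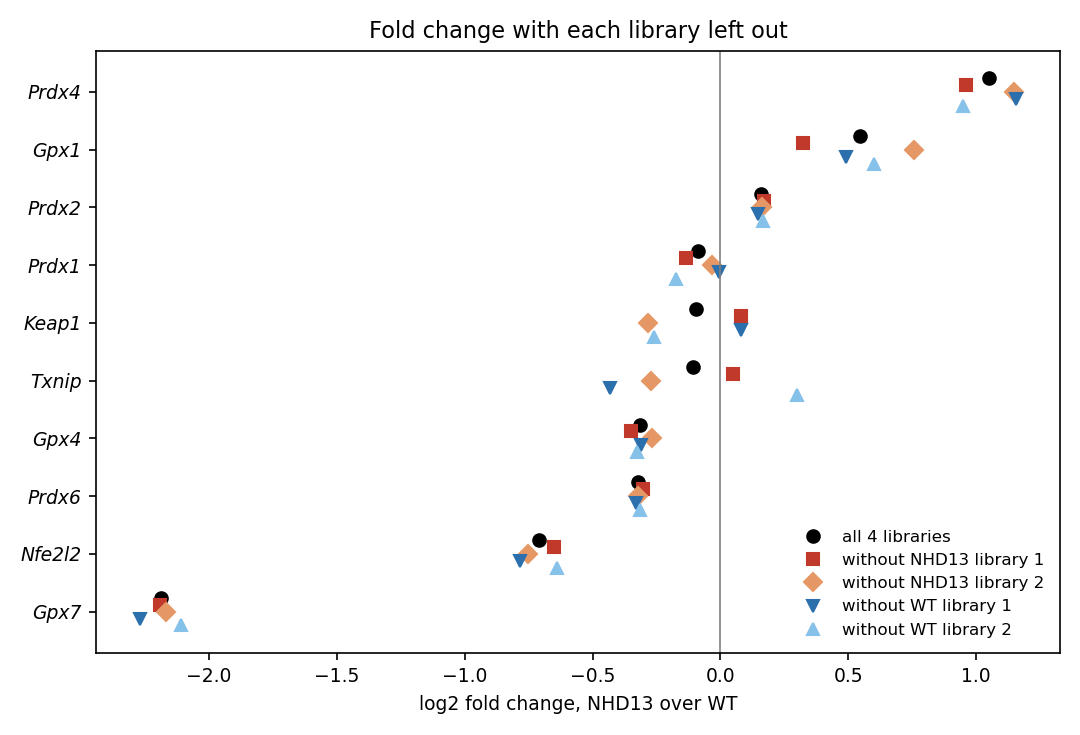
Log2 fold change of NHD13 over WT for each of the 10 genes with all 4 libraries (black) and with each library left out (colours). Keap1 and Txnip cross 0 when a library is left out, with values of -0.28 to 0.08 and -0.43 to 0.30; the other 8 genes stay on their side of 0.

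Promoters are shown where the binding element of the pathway was found, since Nrf2 and its element are the control point of this system. RefSeq promoters (GRCm38.p6, 250 bases before to 50 after a start) matched 9 of the 10 genes, all but Prdx6, with 12 windows. The core of the antioxidant response element, TGACNNNGC on either strand, was in a window of 2 of these genes, Prdx1 and Nfe2l2, and in 12.4 percent of all 32851 windows. The carbohydrate response element (searched as the boxes CACGNG and CNCGNG with 5 bases between them), through which the glucose sensor MondoA acts on Txnip, was in the Txnip window and in 0.365 percent of all windows. The stretch around each match follows, on the strand of the gene, with the match in capitals; in Prdx1 the match is on the opposite strand. They lie at chr4:116685441-116685499 on the plus strand for Prdx1, chr2:75704870-75704913 on the minus strand for Nfe2l2 and chr3:96557847-96557913 on the plus strand for Txnip:
Prdx1: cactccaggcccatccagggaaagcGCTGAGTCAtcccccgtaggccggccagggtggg
Nfe2l2: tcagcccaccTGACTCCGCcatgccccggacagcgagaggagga
Txnip: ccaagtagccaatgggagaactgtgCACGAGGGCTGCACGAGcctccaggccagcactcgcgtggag
Of the genes with a match, Nfe2l2 fell, and Prdx1 and Txnip were not called and had overlapping groups. The windows of Gpx7 and Prdx4, the genes with the largest changes, held neither motif. A match is a description of letters, not of binding.

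The wider pathways were read from 10 lists of 166 genes chosen by textbook role, of which 157 passed the filter on low counts. Of the 157, 48 had an unadjusted p under 0.05, against 26.8 percent of all genes tested. That share is the background for the unadjusted counts of each list below. Among the 157 genes, 2 were called by edgeR, 1 higher and 1 lower, against the background of 4.28 percent given above. Both are Nrf2 target genes. Osgin1, an oxidative stress-induced growth inhibitor gene, was at 12.2 and 12.3 CPM in NHD13 cells, against 51.5 and 57.5 CPM in WT, and fell by 2.16 ± 0.13 on the log2 scale (adjusted p 0.00719). Abcc1, an export pump for glutathione conjugates, was at 178 and 180 CPM in NHD13 cells, against 109 and 121 CPM in WT, and rose by 0.64 ± 0.097 (adjusted p 0.0422). Osgin1 stayed called when NHD13 library 1 (adjusted p 0.0291) or NHD13 library 2 (0.0207) was left out, but not without WT library 1 (0.115) or WT library 2 (0.103). Abcc1 was not called with any 1 library left out: the adjusted p was 0.115 without NHD13 library 1, 0.0692 without NHD13 library 2, 0.250 without WT library 1 and 0.187 without WT library 2.

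Of 33 tested Nrf2 target genes these were the 2 calls, and the list median was -0.15. With these 2 included, 11 of the 33 were lower and 4 higher at an unadjusted p under 0.05. Over all genes tested, 13.9 percent were lower and 12.9 percent higher at that threshold. Ephx1, a microsomal epoxide hydrolase, was at 2.27 and 4.86 CPM in NHD13 cells, against 31.3 and 16.8 CPM in WT (-2.75 ± 0.50, adjusted p 0.0553). DESeq2 called 8 of the list lower and 3 higher, beside its 9.33 percent lower and 8.2 percent higher over all genes, and limma-voom called 2 lower and 1 higher. The glutathione synthesis genes Gclc (0.042 ± 0.19) and Gclm (0.031 ± 0.18) and Hmox1 (0.30 ± 0.52), all known Nrf2 targets, had log2 fold changes within 1 standard error of 0. Other targets of the list lay lower without being called by edgeR. Nqo1 had -1.16 ± 0.33 (adjusted p 0.113), Cbr3 -3.23 ± 0.59 (adjusted p 0.0567) and Gsta4 -2.80 ± 0.64 (adjusted p 0.0794). Me1, Srxn1, Taldo1 and Gsr, described below, are also in this list. Over the whole list, 14 values were above 0 and 19 below, while 49.9 percent of all genes tested were below 0.

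Among 17 Nrf2 partners and regulators 0 were called by edgeR (2 had an unadjusted p under 0.05, and DESeq2 called 1 and limma-voom 0), with a median of -0.02. The smallest p belonged to Dpp3, a peptidase that competes for Keap1, at 0.53 ± 0.11 (adjusted p 0.0662). Nfe2l1, the paralog of Nfe2l2, had -0.24 ± 0.090 (adjusted p 0.177), and the small Maf gene Maff had -0.76 ± 0.30 (adjusted p 0.191).

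Among 5 tested genes of the other peroxidases 0 were called by edgeR (1 had an unadjusted p under 0.05, and DESeq2 called 1 and limma-voom 0), with a median of -0.14. Gpx8, the closest relative of Gpx7 and also an ER protein, was at 0.582 and 2.16 CPM in NHD13 cells, against 7.89 and 6.35 CPM in WT. Its libraries differed within NHD13, and the log2 fold change was -2.36 ± 0.66 (adjusted p 0.110). The mitochondrial Prdx3 had 0.21 ± 0.12 (adjusted p 0.305) and catalase, Cat, had -0.14 ± 0.11 (adjusted p 0.454).

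Oxidative protein folding, the ER process that Prdx4 and Gpx7 serve, was examined with a list of 16 genes. The median log2 fold change was 0.21, with 13 values above 0 and 3 below, and 0 were called by edgeR (4 had an unadjusted p under 0.05, and DESeq2 called 1 and limma-voom 0). Pdia4, a disulfide isomerase, had 0.56 ± 0.13 (adjusted p 0.0841), the sulfhydryl oxidase gene Qsox1 had 0.31 ± 0.097 (adjusted p 0.134) and the ER oxidase gene Ero1lb had 0.75 ± 0.25 (adjusted p 0.145). Prdx4 and Gpx7, both of the ER, changed in opposite directions: the Prdx4 to Gpx7 count ratio was 61.6 and 54.9 in NHD13 cells, against 6.995 and 5.416 in WT.

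In the thioredoxin and sulfiredoxin list of 20 genes 0 were called by edgeR (3 had an unadjusted p under 0.05, and DESeq2 called 1 and limma-voom 0), with a median of -0.15. Srxn1, the sulfiredoxin that restores over-oxidised peroxiredoxins, was at 12.7 and 22.2 CPM in NHD13 cells, against 40.3 and 36.1 CPM in WT (-1.13 ± 0.29, adjusted p 0.0947). Txnrd3, a thioredoxin reductase, had -0.69 ± 0.20 (adjusted p 0.110) and Msra, a methionine sulfoxide reductase, had -0.26 ± 0.10 (adjusted p 0.183).

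In the glutathione list of 14 genes 0 were called by edgeR (2 had an unadjusted p under 0.05, and DESeq2 called 1 and limma-voom 0), with a median of -0.32. Gss, the glutathione synthetase, had -0.54 ± 0.14 (adjusted p 0.0956), Ggct, a gamma-glutamylcyclotransferase, had -0.69 ± 0.19 (adjusted p 0.112), and the reductase Gsr had 0.41 ± 0.18 (adjusted p 0.234). Of 12 tested superoxide dismutase and NADPH supply genes 0 were called by edgeR (5 had an unadjusted p under 0.05, and DESeq2 called 3 and limma-voom 0), with a median of -0.06. Me1, the cytosolic malic enzyme that makes NADPH, was at 0.466 and 1.41 CPM in NHD13 cells, against 12.9 and 7.12 CPM in WT (-3.39 ± 0.65, adjusted p 0.0599). It was lower in both NHD13 libraries, while the NADPH-producing Idh2 had 0.53 ± 0.11 (adjusted p 0.0630) and Taldo1, of the pentose phosphate pathway, had 0.64 ± 0.16 (adjusted p 0.0977).

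Among 18 tested Txnip regulators, partners and arrestin relatives 0 were called by edgeR (8 had an unadjusted p under 0.05, and DESeq2 called 4 and limma-voom 0), with a median of 0.05. Arrdc3, an arrestin-domain relative of Txnip, was at 74.3 and 56.3 CPM in NHD13 cells, against 104 and 151 CPM in WT (-0.97 ± 0.23, adjusted p 0.0847). Slc2a1, the glucose transporter that Txnip restrains, was at 32.8 and 37.7 CPM in NHD13 cells, against 115 and 60.9 CPM in WT (-1.32 ± 0.32, adjusted p 0.0850). Nlrp3, an inflammasome sensor known to bind Txnip, had 64 and 48 counts in NHD13 cells, against 10 and 9 in WT (2.56 ± 0.61, adjusted p 0.0835).

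Among 19 selenoprotein genes and genes of selenocysteine insertion 0 were called by edgeR (6 had an unadjusted p under 0.05, and DESeq2 called 3 and limma-voom 1), with a median of 0.12. Selm, an ER selenoprotein gene, had -1.09 ± 0.19 (adjusted p 0.0511), Selk, of the ER membrane, had -0.38 ± 0.085 (adjusted p 0.0759), and Sepp1, which carries selenium in plasma, had -0.44 ± 0.13 (adjusted p 0.112). Among 14 genes of phospholipid peroxidation and ferroptosis 0 were called by edgeR (6 had an unadjusted p under 0.05, and DESeq2 called 2 and limma-voom 0), with a median of -0.11. The lipoxygenase gene Alox5, which is known in myeloid cells, was at 10.4 and 7.18 CPM in NHD13 cells, against 2.55 and 3.17 CPM in WT (1.62 ± 0.32, adjusted p 0.0625). Acsl3, an acyl-CoA synthetase, had -0.38 ± 0.10 (adjusted p 0.101) and Aifm2, a ferroptosis suppressor, had -0.49 ± 0.17 (adjusted p 0.166).

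**Figure D5:**
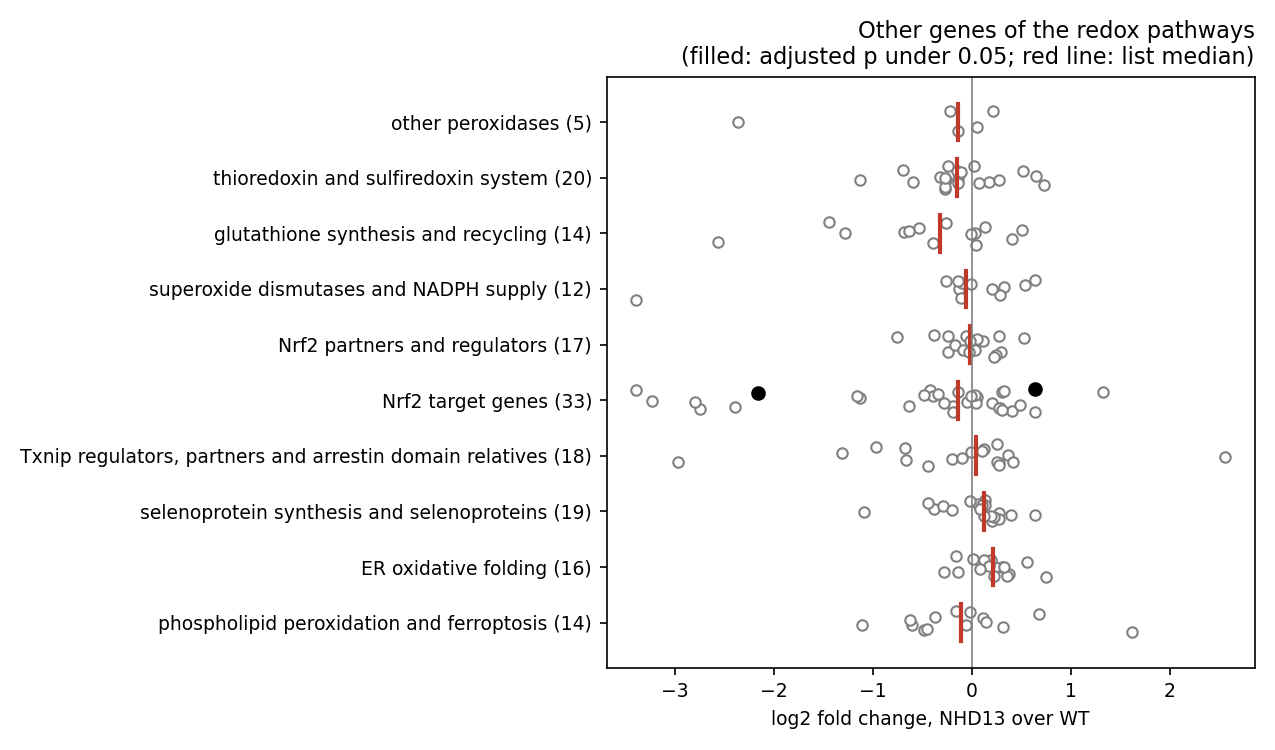
Log2 fold change of NHD13 over WT for the tested genes of each of 10 redox lists, with the number tested in brackets; filled points have an adjusted p under 0.05 and red lines are list medians. The filled points are Osgin1 at -2.16 and Abcc1 at 0.64, both in the Nrf2 target list.

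Genes with the most similar pattern over the 4 libraries were found for Gpx7 and Prdx4, the members with the smallest adjusted p, by the Euclidean distance between log2 CPM values centred on each gene's mean, among 11439 genes. For Gpx7 the nearest was Osgin1, at a distance of 0.035, followed by Ric3, a chaperone of acetylcholine receptors (0.10), and Ecm2, an extracellular matrix protein gene (0.12). Ric3 had -2.22 ± 0.27 (adjusted p 0.0297) and Ecm2 had -2.22 ± 0.30 (adjusted p 0.0357), close to the value of Gpx7. For Prdx4 the nearest were the condensin subunit gene Ncapd2 (distance 0.0027), the histone variant gene H2afz (0.067) and the spindle protein gene Hmmr (0.079). Their log2 fold changes were 1.05 ± 0.13, 0.99 ± 0.12 and 1.11 ± 0.13, each called on all 4 libraries (adjusted p 0.0297, 0.0318 and 0.0286). Without NHD13 library 1 none of these 3 was called by edgeR (adjusted p 0.0757, 0.0845 and 0.0808), and the same held for Ric3 (0.0715) and Ecm2 (0.0953); Ecm2 also missed without NHD13 library 2 (0.0505), and all 5 missed without either WT library, where no gene was called. With 4 libraries, such a likeness is a description of these samples only.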

How the data were processed

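Libraries were made from 10 ng of RNA by the SMARTer low-input method and read from both ends, per the labels' protocols. The submitters' processing notes name Bowtie 0.12.2 and the build mm9. How reads were counted, with which strand setting and treatment of multiple alignments, is not given in the sources used here. The deposited values are raw counts per RefSeq transcript, 33018 per library. The transcript with the highest total stood for each symbol; the other transcripts of Gpx4, Keap1 and Txnip, where there were several, held at least 96.0 percent of its counts in every library.

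The test was edgeR 4.0.16 in R 4.3.3, after filterByExpr and TMM scaling: the robust quasi-likelihood test on all 4 libraries and Benjamini-Hochberg adjustment over 14853 genes. The standard error is the log2 fold change divided by the square root of F. The common dispersion corresponded to a biological coefficient of variation of 26.9 percent. The test was also run on simulated counts, and the outcome of that run is not given here. DESeq2 1.42.0 and limma-voom (limma 3.58.1) were alternatives, with other scalings, filters, thresholds, a replicate block, summed transcripts and each library left out. A block with crossed replicate numbers was chosen after seeing the data.

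The members and lists were chosen with earlier results of these data known. Named genes were the 10 members, in each list every called gene or up to 3 with the smallest adjusted p, and the 3 genes nearest to each of the 2 members with the smallest adjusted p. Gclc, Gclm, Hmox1, Nqo1, Cbr3, Gsta4 and the single markers given were named after their values were seen. Calls within the erythroid marker list are not reported here. Transcript lengths came from GENCODE M21 (GRCm38) by RefSeq accession, and no mm9 coordinates were used.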

Additional observations from a re-analysis of the deposited data

How the results depend on the processing

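Over 16 alternatives, each of Gpx7, Prdx4, Nfe2l2, Gpx1, Gpx4, Prdx6, Prdx1 and Prdx2 kept the sign of its log2 fold change. Among the alternatives, the thresholds of 0.01 and 0.1 reused the main fit, so their fold changes could not differ. Keap1 (-0.28 to 0.081, the highest value without NHD13 library 1 or WT library 1) and Txnip (-0.43 to 0.30, with 0.05 without NHD13 library 1) changed sign when a library was left out. The 3 called members numbered 6 by DESeq2 and 0 at an adjusted p under 0.01, and 0 to 3 with each library left out. All genes called (636) numbered 1138 without a filter, 1066 with a stricter filter (1 CPM in each library of 1 group), 2604 by DESeq2, 402 with summed transcripts, 47 at 0.01, 1923 at 0.1, and 0 to 990 with a library left out. The 2 called pathway genes numbered 8 without a filter, 7 with that filter, 25 by DESeq2, 4 by limma-voom, 1 with summed transcripts, 1 at 0.01, 19 at 0.1, and 0 to 7 with a library left out. The cause was not tested. Same-numbered libraries share only a number (correlation of deviations -0.21, over 2 pairs): with the replicate block 107 genes, 0 members (6 at an unadjusted p under 0.05) and 1 pathway gene were called, and with crossed pairing 647, 3 and 5. Libraries of a group differed by more than counting noise, with an average chi-square per gene, on 1 degree of freedom, of 61.6 in NHD13 and 33.8 in WT. The part of depth in the number of calls was not tested.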
